A study of Mus musculus with 2 samples.

Results

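The regulators of mitochondrial biogenesis described here are 10 genes out of 21000 protein-coding genes of the mouse. They were taken as a named list, which holds the PGC-1 coactivators Ppargc1a, Ppargc1b and Pprc1, the transcription factor genes Nrf1, Gabpa, Gabpb1, Esrra, Yy1 and Ppara, and the kinase gene Prkaa2. For each gene the binding of NRF1 in muscle was read from peaks of chromatin immunoprecipitation sequencing (ChIP-seq), an assay in which an antibody pulls down a protein with the DNA it occupies. A promoter was taken as 1000 bp before to 100 bp after any start of a known RefSeq transcript on the mm10 genome, and a promoter peak as a peak whose summit, its highest point, lay there.

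The series holds 2 libraries in 1 group, and the labels of each give wild-type as genotype, skeletal muscle as tissue and NRF1 as antibody. A single list of 3226 peaks was analysed, all peak names carry the title of replicate 1, and the number of peaks differs from that in the study's text, so it may not be the list counted there. A reporting form of the study names replicate 2 as input DNA, against its label, and no separate values of it were used, so no value below has a replicate error. The labels give no age, muscle or number of pooled animals, and a peak list holds no expression by which the tissue could be checked.

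NRF1, nuclear respiratory factor 1, is a homodimer that binds a GC-rich palindrome in promoters and activates nuclear genes of the respiratory chain and of mitochondrial DNA maintenance. PGC-1alpha, encoded by Ppargc1a, binds no DNA itself. It is recruited by NRF1, by the nuclear receptors ERRalpha and PPARalpha and by other factors, and in muscle its activity rises with exercise and energy stress through the kinase AMPK. GABP, also called nuclear respiratory factor 2, is a complex of a DNA-binding subunit and a transactivating subunit, and acts on many of the same promoters as NRF1.

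NRF1 peaks lay in the promoters of 5 of the 10 genes, or 50%, namely Esrra, Gabpa, Gabpb1, Ppara and Yy1. Among all protein-coding genes 13.4% had a promoter peak. The coactivator genes Ppargc1a, Ppargc1b and Pprc1 had no peak in the promoter or in the gene, and neither had Prkaa2, the AMPK alpha2 catalytic subunit. Nrf1 itself carried a peak in the gene body, 119 bp after its first start and so just outside the promoter. Gene body peaks were found in 2 of the 10 genes, Nrf1 and Gabpa, and in 2.32% of all protein-coding genes. The median nearest summit of a protein-coding gene lay 133 kb from a start, with quartiles of 28.4 and 481 kb.

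**Figure D1:**
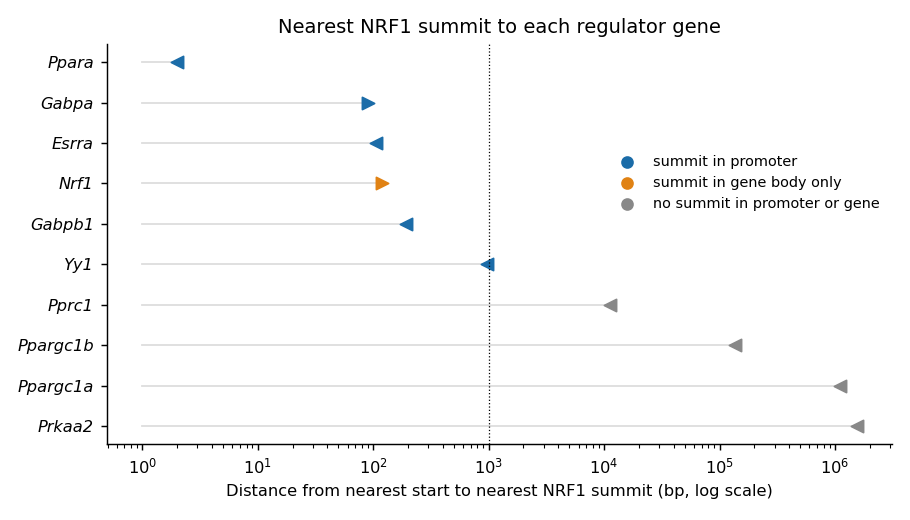
Distance in bp on a log scale from the nearest known start of each gene to the nearest NRF1 summit, with triangles that point left for summits before the start and right for summits after it, and a dotted line at 1000 bp. Among the 6 genes with a peak distances ran from 2 bp at Ppara to 962 bp at Yy1, and the other 4 genes had their nearest summit at 11218 bp or more.

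The sequence under each peak was compared with the NRF1 palindrome GCGCATGCGC, which reads the same on both strands. With at most 1 mismatch it occurred within 100 bp of the summit in 65.9% of all 2607 promoter peaks, and without a mismatch in 10.9%. Of the 5 promoter peaks of the regulators 2 held such a copy. To show how close the DNA under each peak comes to the palindrome, the copy with the fewest mismatches is given for each peak, with 10 bases to either side, on the strand of the gene and with the 10 bases of the copy in capitals. Where copies tied, the one nearest to the summit is given. Sequences are those of the RefSeq assembly GRCm38.p6.
Ppara promoter, no mismatch, chr15:85735735-85735764: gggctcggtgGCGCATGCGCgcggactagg
Gabpa intron, no mismatch, chr16:84836303-84836332: ctccacaagtGCGCATGCGCaccttataag
Gabpb1 promoter, 1 mismatch, chr2:126675788-126675817: ccccgctgccGCGCAGGCGCcgggcgagcc
Esrra promoter, 2 mismatches, chr19:6921885-6921914: tcctccgggtACGCAGGCGCcgccgcctcc
Gabpa promoter, 2 mismatches, chr16:84835105-84835134: actgcactgtACGCATGCGTattctggcct
Nrf1 first exon, 2 mismatches, chr6:30048088-30048117: gcccacggtaGCGCAGCCGCtctgaggtga
Yy1 promoter, 3 mismatches, chr12:108792307-108792336: cttgccgcggTCGCCTTCGCgcgccgccca
The copies of Ppara, of the Gabpa intron and of Gabpb1 were centred 24.5, 30.5 and 18.5 bp from their summits. The copy of the Gabpa promoter lay 94.5 bp from its summit, near the edge of the searched window. A copy with at most 2 mismatches was present at 91% of all promoter peaks, and a half-site, the 5 bases GCGCA on either strand, at 96.2%. The Gabpa promoter peak held no half-site, and the peaks of Yy1, Esrra and Nrf1 held 1, 3 and 4.

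The strength of each peak was read as fold enrichment, the ratio of antibody signal to control background at the summit given by the authors. The number of fragments over a summit was solved from fold enrichment and p-value, and a whole number met both for all 3226 peaks. It was the only one that did at 3217 peaks, all those of the 10 genes included. The intervals given below are exact Poisson 95% intervals of that number, with the control level held fixed, and cover counting error only. Over all promoter peaks the median was 11.1-fold, with quartiles of 7.9 and 16.4, and the median number of fragments was 34, with quartiles of 22 and 49. The promoter peaks of the regulators ran from 5.49 at Yy1 to 26.1 at Esrra, with a median of 9.65.

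**Figure D2:**
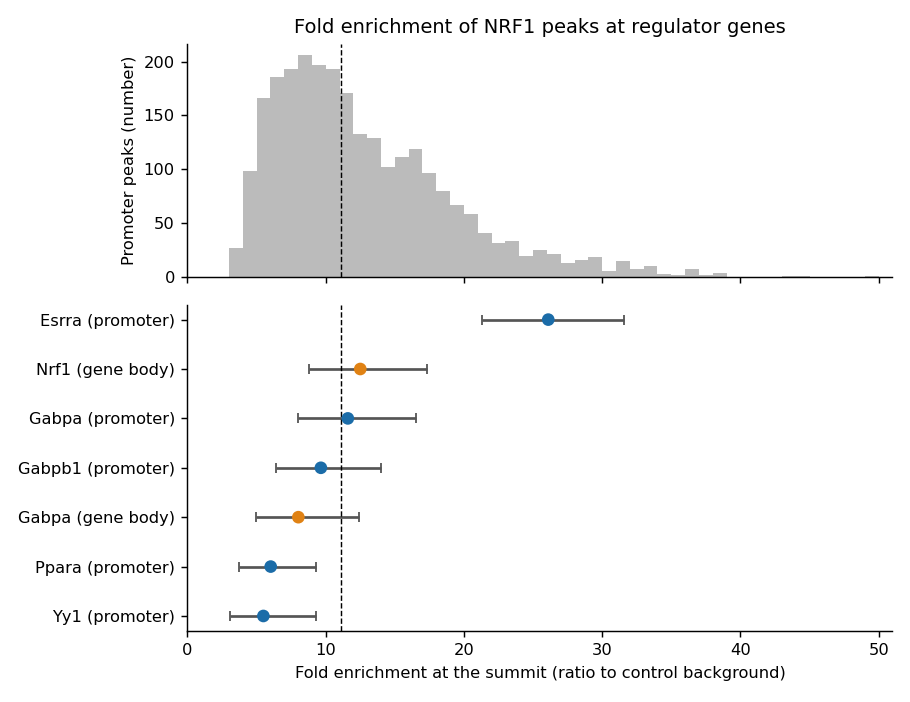
Fold enrichment at the summit, as a ratio to control background, for promoter peaks of the series (upper panel, number of peaks) and for the 7 peaks of the regulators (lower panel, blue for promoter and orange for gene body, bars for 95% Poisson intervals of the fragment number), with a dashed line at the promoter median of 11.1. The interval of Esrra, 21.3 to 31.6, lies above the intervals of the other 6 peaks.

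Esrra, which encodes the orphan nuclear receptor ERRalpha, a main partner of PGC-1 coactivators on oxidative genes, carried the strongest peak of the set. The gene lies at chr19:6910977-6921808 on the minus strand with 1 known start, and the peak spanned chr19:6921732-6922173, with its summit 105 bp before that start. At the summit 100 fragments (95% interval 81.4 to 122) stood over a control level of 2.87, a 26.1-fold enrichment (21.3 to 31.6) with a −log10 q of 109. This fold was above that of 95.2% of promoter peaks. No other gene's promoter shared the summit.

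The Esrra peak was strong without a close match to the palindrome. It held 3 copies with 2 mismatches and none with fewer. Of the 125 promoter peaks with a higher fold enrichment than Esrra, 9 were likewise without a copy within 1 mismatch. Over all promoter peaks the median fold was 12.9 with such a copy and 8.58 without. The 250 bases before the Esrra start, at chr19:6921809-6922058 and printed 5′ to 3′ on the minus strand, hold the 3 copies, which are in capitals, and 22 CpG dinucleotides, with a GC content of 68.4%.
Esrra: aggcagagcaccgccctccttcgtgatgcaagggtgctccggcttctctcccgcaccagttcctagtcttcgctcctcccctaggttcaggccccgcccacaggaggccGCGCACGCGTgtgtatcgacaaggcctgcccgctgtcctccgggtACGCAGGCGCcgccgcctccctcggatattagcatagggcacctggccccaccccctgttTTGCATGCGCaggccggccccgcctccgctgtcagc

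Both subunit genes of GABP that were on the list had a promoter peak. Gabpa, the DNA-binding subunit with an ETS domain, lies at chr16:84835124-84863779 on the plus strand. Its promoter peak, chr16:84835024-84835356, had the summit in the 5′ untranslated exon, 90 bp after the start and so just inside the promoter window. It rested on 30 fragments (20.2 to 42.8) over a control level of 1.66, an 11.6-fold enrichment (7.98 to 16.5) with a −log10 q of 23.7. That is close to the median of promoter peaks, 52.9% of which were lower.

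Gabpa was the only one of the 10 genes with both a promoter and a gene body peak. Of all protein-coding genes with a promoter peak, 2.14% also had one in the gene body. The second peak, chr16:84836196-84836383, lay in an intron 1163 bp after the start, with 18 fragments (10.7 to 28.4) over a control level of 1.37. Its fold enrichment was 8.02 (4.93 to 12.4) and its −log10 q 11.3. The weaker peak held the exact palindrome shown above, and the promoter peak had none within 1 mismatch, while the intervals of the folds overlapped.

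The Gabpa peaks cannot be given to Gabpa alone. Atp5j, a subunit gene of the mitochondrial ATP synthase, is transcribed from the same locus in the opposite direction from 5 known starts. Relative to the nearest Atp5j start the promoter summit lay at -192 bp and the intron summit at -662 bp, so both were promoter peaks of Atp5j. The promoter peak of Gabpa thus lay in 2 promoters, and 11.8% of all promoter peaks lay in those of 2 or more protein-coding genes.

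Gabpb1, the subunit that gives GABP its activation domain, lies at chr2:126628907-126676337 on the minus strand and has 10 known transcripts with 3 starts. Its peak, chr2:126675568-126675969, had the summit 192 bp before the nearest start and inside an intron of longer transcripts. A total of 26 fragments (17 to 38.1) stood over a control level of 1.8, a 9.65-fold enrichment (6.43 to 14) with a −log10 q of 18. This was above 38.2% of promoter peaks. The same summit lay in the promoter of A630026N12Rik, so this peak too was shared with a neighbouring gene.

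Ppara and Yy1 carried the weakest peaks of the set. Ppara encodes PPARalpha, the fatty acid receptor that drives genes of fatty acid oxidation, and lies at chr15:85735564-85806851 on the plus strand with 2 known starts. Its peak, chr15:85735598-85735915, had the summit 2 bp before the second start, nearer to a start than that of any other regulator. It rested on 18 fragments (10.7 to 28.4) over a control level of 2.16, a 6.02-fold enrichment (3.7 to 9.33) with a −log10 q of 7.94. The exact palindrome thus lay under a peak that was above only 11.2% of promoter peaks.

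Yy1, a zinc finger factor that works with PGC-1alpha on mitochondrial genes in muscle, lies at chr12:108793297-108820148 on the plus strand. Its peak, chr12:108792264-108792418, had 12 fragments (6.2 to 21) over a control level of 1.37, a 5.49-fold enrichment (3.04 to 9.27) with a −log10 q of 4.98. It was above 8.29% of promoter peaks and was the peak with the fewest fragments. The summit lay 962 bp before the start, close to the far edge of the window, whereas 84.7% of all 2866 pairs of a gene and a promoter summit were within 200 bp and 0.488% more than 900 bp before a start. With predicted RefSeq transcripts added the summit lay at -610 bp of the nearest start, and with GENCODE starts at -638 bp. The call was lost with promoters of 500 bp to either side and with a q-value of at most 1e-05.

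**Figure D3:**
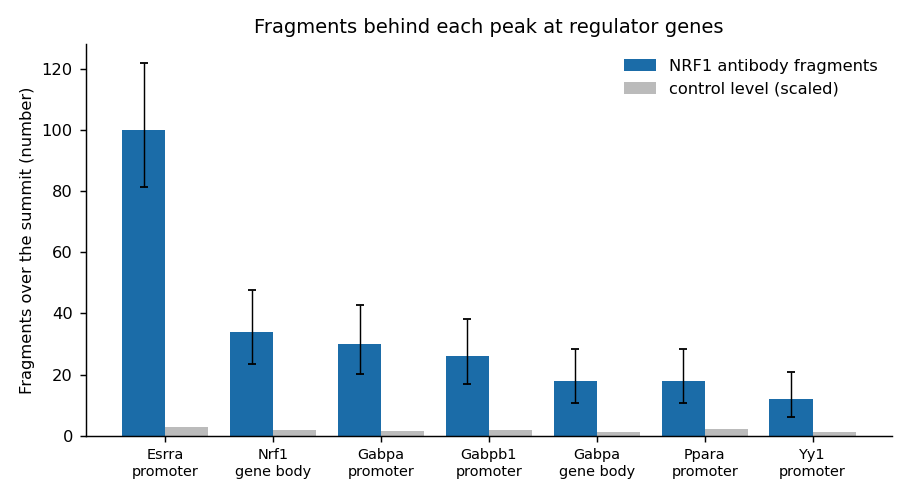
Number of NRF1 antibody fragments over the summit of each peak of the regulators (blue bars, with 95% Poisson intervals) beside the control level scaled to the same depth (grey bars). Esrra had 100 fragments and the other 6 peaks had 12 to 34, while the control level lay between 1.37 and 2.87 at all 7.

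In the order of fold enrichment Esrra came first, followed by Nrf1, the Gabpa promoter, Gabpb1, the Gabpa intron, Ppara and Yy1. After Esrra, neighbours in this order had overlapping counting intervals. The overlap does not show that the peaks were alike, and differences between them were not tested.

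Nrf1, the gene of the immunoprecipitated factor itself, lies at chr6:30047988-30153458 on the plus strand with 10 known transcripts and 3 starts. The peak spanned chr6:30047982-30048225, and its summit was in the 5′ untranslated first exon. There were 34 fragments (23.5 to 47.5) over a control level of 1.8, a 12.5-fold enrichment (8.78 to 17.3) with a −log10 q of 27.7. This fold was above that of 57.6% of promoter peaks, so the peak was of middle strength although it was not counted as a promoter peak.

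Whether the Nrf1 peak counted as a promoter peak therefore turned on the window, the annotation and the use of the summit. The summit lay 119 bp after the nearest known start, 76 bp after the nearest start when predicted transcripts were added, and 35 bp after a GENCODE start. Nrf1 had a promoter peak with either of these other annotations, with promoters from 2000 bp before to 500 bp after a start, with 500 bp to either side, and when any overlap of the peak counted. Among protein-coding genes without a promoter summit 231, or 1.1% of all, had one beyond 100 and up to 500 bp after a start, and Nrf1 was the only one of the 10. Around the summit the GC content was 76.1% and the ratio of observed to expected CpG 0.969.

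None of the PGC-1 coactivator genes had an NRF1 peak in its promoter or gene body. Most genes had neither, as 13.4% of all protein-coding genes had a promoter peak and 2.32% a gene body peak. Ppargc1a, at chr5:51454249-51567725 on the minus strand with 2 known starts, had its nearest summit 1102085 bp before a start, in the promoter of Sepsecs at 13.2-fold. Only 11.9% of protein-coding genes had a more distant nearest summit. Ppargc1b, which encodes the related PGC-1beta and lies at chr18:61291445-61400412 on the minus strand, had its nearest summit 136035 bp upstream, in the promoter of Arhgef37 at 8.47-fold. This distance was in the middle of all genes, 49.5% of which were farther. Pprc1, which encodes the PGC-1-related coactivator and lies at chr19:46056539-46072909 on the plus strand, was nearest to a peak, with a 5.92-fold summit 11218 bp upstream in the promoter of Ldb1. For Pprc1, 81.7% of protein-coding genes had a more distant nearest summit. The nearest peaks of the 3 coactivator genes were thus promoter peaks of other genes.

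Prkaa2, the AMPK catalytic subunit that predominates in muscle, lies at chr4:105029649-105109898 on the minus strand. Its nearest summit, 13.3-fold in the promoter of Pars2, lay 1541193 bp upstream, and 7.34% of protein-coding genes were farther. Prkaa1, which encodes the other catalytic subunit of AMPK, did have a promoter peak, with 28 fragments and a 16.7-fold enrichment (11.3 to 23.9) 4 bp before its start.

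How low a peak could be and still be called bears on these absences. Where the control was at its genome-wide floor of 0.573, the weakest called peak had 7 fragments and a 5.09-fold enrichment. Binding that left fewer fragments than that was not detectable at this depth, so a gene without a peak is not shown to be free of NRF1. At the peaks of the regulators the control level was higher, from 1.37 to 2.87, and a higher control raises the number of fragments needed.

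The promoters without a peak were compared by sequence with those that had one. The palindrome with at most 1 mismatch was present in the promoters of 2 of the 10 genes, Gabpb1 and Ppara, and both had a peak. Over the genome 12.1% of protein-coding genes held it in a promoter. Of all protein-coding starts that held it 75.5% had a promoter summit, and of those that did not 4.42% had one. Among the genes without a peak the closest copies in the promoter had 2 mismatches at Ppargc1b and Prkaa2 and 3 at Ppargc1a and Pprc1. The closest copies anywhere in the promoters of Esrra, Gabpa and Yy1, which had a promoter peak, likewise had 2 mismatches.

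Ppargc1a was the only one of the 10 genes whose promoter windows were all poor in CpG. Its 2 windows had GC contents of 43.7% and 44.3% and CpG ratios of 0.147 and 0.279, against medians of 50.3% and 0.441 over all protein-coding starts. The 2 later starts of Nrf1 were as poor, at 0.142 and 0.0798, but its first start, next to the peak, had a ratio of 0.839. Starts with a promoter summit had a median CpG ratio of 0.688 and starts without one 0.38. The 250 bases before the upstream start of Ppargc1a, at chr5:51567726-51567975 and printed 5′ to 3′ on the minus strand, hold 5 CpG dinucleotides at a GC content of 48%. There is no copy within 2 mismatches, so nothing is in capitals, and the sequence can be read against that of Esrra. The window of the other known start, at chr5:51553921, is not printed, and its closest copy had 3 mismatches.
Ppargc1a: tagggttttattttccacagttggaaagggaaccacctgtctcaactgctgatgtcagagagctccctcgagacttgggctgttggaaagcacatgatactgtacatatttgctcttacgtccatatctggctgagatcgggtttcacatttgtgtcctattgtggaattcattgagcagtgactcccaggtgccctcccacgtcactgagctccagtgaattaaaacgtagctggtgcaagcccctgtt

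The other genes without a peak had promoters richer in CpG. Pprc1, Ppargc1b and Prkaa2 had CpG ratios of 0.644, 0.641 and 0.589, close to 0.673 at Esrra and 0.659 at Gabpa. A CpG ratio of at least 0.5, a limit chosen after the values were seen, was reached at some start of 9813 protein-coding genes, of which 25.3% had a promoter peak, against 2.9% of the others. All regulators but Ppargc1a reached it, and 5 of these 9 had a promoter peak.

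**Figure D4:**
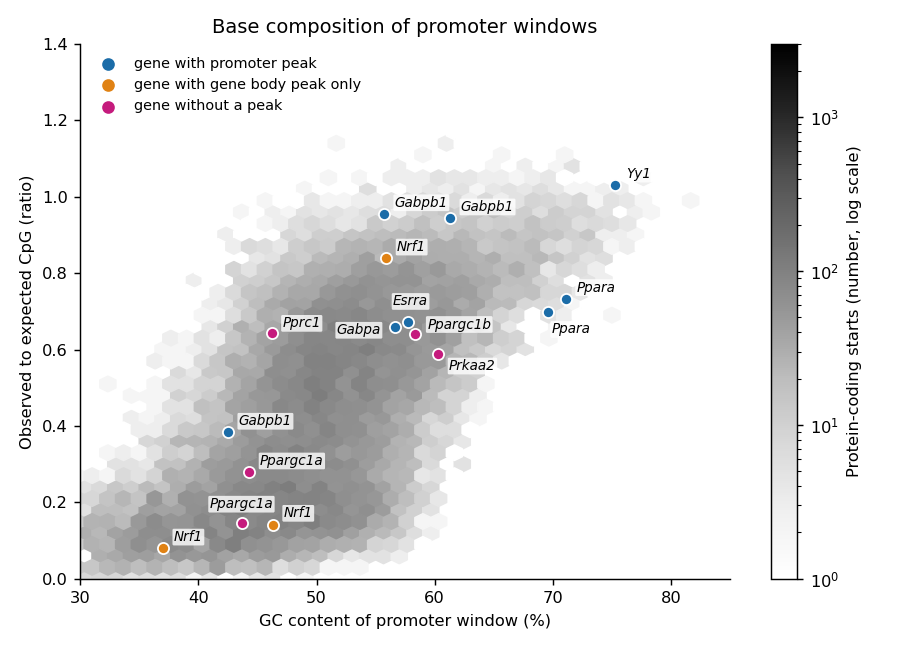
GC content (%) and ratio of observed to expected CpG of promoter windows, 1000 bp before to 100 bp after a start, for all 26242 protein-coding starts (grey, number per cell on a log scale) and the 16 starts of the regulators (points, coloured by the peaks of their gene). Starts of Ppargc1a lie at CpG ratios of 0.147 and 0.279, whereas Ppargc1b and Prkaa2, also without a peak, lie beside Esrra and Gabpa.

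Motifs of the other factors on the list were searched within 100 bp of the summits on both strands, with letters chosen after the values were seen. None of CCGGAAG for GABP, AAGATGG for YY1 and TCAAGGTCA for ERRalpha occurred at the 7 peaks. Among all promoter peaks they occurred at 15.5%, 5.45% and 0.153%.

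A wider set of 90 genes that act on or with the PGC-1 coactivators was read in the same way, and 18 of them, or 20%, had a promoter peak, against 13.4% of all protein-coding genes. Among genes with a start at a CpG ratio of at least 0.5 the direction turned, with 15 of 74 listed genes, or 20.3%, against 25.3% of all such protein-coding genes. The median fold of these peaks was 12.7, from 5.33 at Cab39 to 36.8 at Crtc1, and 9 of the 18 held the palindrome within 1 mismatch. Gene body peaks were found in 3 of the 90, Camkk1, Gsk3b and Thra, at 11.4-, 7.99- and 7.4-fold, a share near the 2.32% of all protein-coding genes. The Gsk3b summit also lay in the promoter of BC031361.

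The background share of genes with a promoter peak was 13.4%, and 25.3% among genes with a start at a CpG ratio of at least 0.5. Among the other subunits of AMPK, the energy-sensing kinase that phosphorylates PGC-1alpha, 2 of 6, or 33.3%, had a promoter peak. They were Prkaa1 and the regulatory subunit gene Prkab2, with 63 fragments and 16.5-fold enrichment. Of 11 genes that act upstream of AMPK or in the folliculin complex 3, or 27.3%, had one. These were Strada (9.67-fold) and Cab39 (5.33-fold), whose products form the active LKB1 kinase complex, and Flcn (7.87-fold), the folliculin gene. The Cab39 call was lost at a q-value of at most 1e-05. None of the 5 peaks held the palindrome within 1 mismatch, which 65.9% of all promoter peaks held.

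Nuclear receptors related to ERRalpha and PPARalpha had promoter peaks at about the background share of 13.4%. Of 9 such genes 1, or 11.1%, had one, Rxrb, the partner receptor RXRbeta, at 11.9-fold, with a summit that also lay in the promoter of Slc39a7. The closest relatives, chosen here after their values were seen, had no promoter peak and their nearest summits at 257029 bp for Esrrb, 1491664 bp for Esrrg, 95791 bp for Ppard and 122553 bp for Pparg. The values of Ppard and Pparg are below the median of 133 kb over all protein-coding genes. Gabpb2, the paralogue of Gabpb1, likewise had no promoter peak and a nearest summit at 106529 bp. Within the ERR, PPAR and GABP beta families the promoter peaks lay at Esrra, Ppara and Gabpb1, genes chosen with earlier results of these data known. As only 13.4% of all protein-coding genes had a promoter peak, relatives without one do not set these genes apart.

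Partners and regulators of PGC-1 coactivators were read in separate lists of activators and of repressors, and a difference between the lists was not tested. The background share was again 13.4%, and 25.3% among genes with a start at a CpG ratio of at least 0.5. None of 12 activating partners had a promoter peak, but Hcfc1, with a 12.7-fold summit 1531 bp before its start, gained one with promoters from 2000 bp before to 500 bp after a start and with predicted transcripts added. Of 11 repressors and turnover factors 4, or 36.4%, had one. They included Mybbp1a, a repressor that binds PGC-1alpha, at 21.2-fold, and Parp1, an NAD-consuming polymerase, at 13.5-fold. The others were Kat2a, the acetyltransferase GCN5, at 9.44-fold, and Sirt6, a deacetylase, at 5.69-fold. A further repressor gene, Ncor1, gained a call with that window and when any overlap counted, from a summit 1139 bp before its start and in the promoter of Pigl. The Sirt6 peak, which also lay in the promoter of Ankrd24, held the exact palindrome and, with 19 fragments, resembled that of Ppara in strength.

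Of 14 transcription factor genes known to act upstream of Ppargc1a 5, or 35.7%, had a promoter peak. The share was 13.4% over all protein-coding genes and 25.3% over those with a start at a CpG ratio of at least 0.5. Crtc1, a CREB coactivator, had the highest fold of all listed genes, 36.8 (30.4 to 44.1) with 115 fragments, and its interval overlapped narrowly with that of Esrra. Mef2a, a muscle factor that binds the Ppargc1a promoter, followed at 18.9-fold, then Usf2 at 17.4-fold, Usf1 at 8.48-fold and Atf2 at 5.66-fold. The Usf2 summit lay 779 bp before its start, and its call was lost with promoters of 500 bp to either side. The rest of the 14 genes had no promoter peak, and neither had Ppargc1a itself. Differences between these genes were not tested. None of 12 kinases and phosphatases that signal to PGC-1alpha had a promoter peak, but with GENCODE starts the Gsk3b peak became one. Of 15 other nuclear regulators of mitochondrial genes 3, or 20%, had a promoter peak. They were Nr1d1, the circadian repressor REV-ERBalpha, at 26.3-fold, Max, the partner of MYC, at 15.1-fold, and Pknox1 at 6.43-fold.

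**Figure D5:**
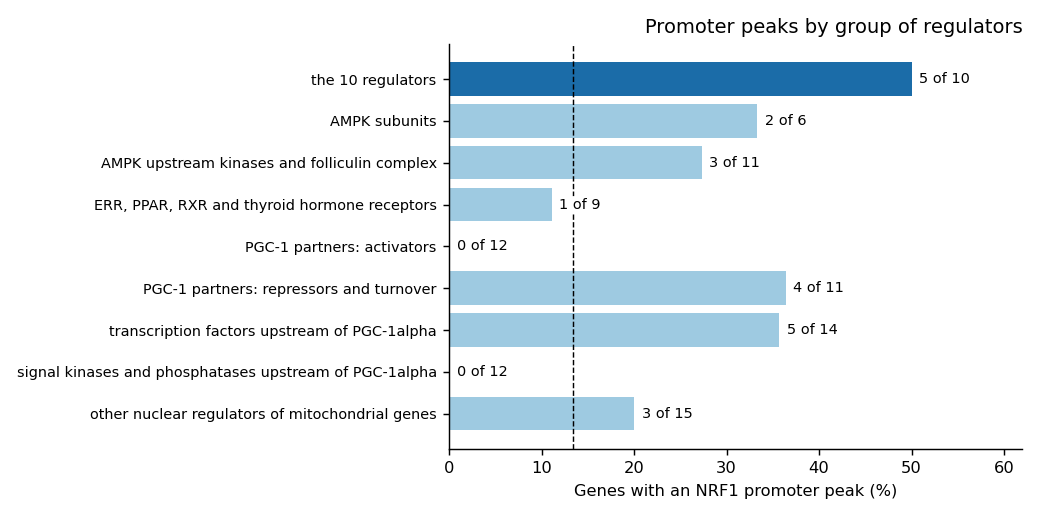
Percentage of genes with an NRF1 promoter peak among the 10 regulators (dark bar) and in 8 lists of related genes (light bars), with counts beside the bars and a dashed line at the 13.4% of all protein-coding genes. Shares run from 0 of 12 for activating partners and for signal kinases to 5 of 10 for the regulators, and each rests on 6 to 15 genes.

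These shares are descriptions of small lists and were not tested. A share for 1 list is not shown to differ from that of another or from the genome.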

How the data were processed

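As the study's methods state, the authors mapped ChIP-seq reads to mm10 with Bowtie, kept uniquely mapped ones and ran MACS2 with input DNA as control. For each peak the authors deposited a fold enrichment (a ratio to control background), −log10 p-values and q-values, a display score, which was not used, and the summit offset. The methods exclude q-values above 0.01, but 7 deposited peaks had one, and they name the broad option, but the list has the narrow layout. Pooling is not given in the sources used here. Unique mapping removes signal in repeats, and a deeper library would pass the threshold at weaker sites.

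The whole fragment number n was solved that met fold = (n + 1)/(control + 1) and the Poisson p-value (relative tolerance 0.0001). At the peaks of the 10 genes the next best whole number missed by at least 0.00852. Summits had a median of 32 fragments and ran from 7 to 265. Control levels implied a control 2.78 times as deep as the antibody library and fragments of 136 bp, although the methods state 150 bp. With the genome size that the study set, depth would be about 7870000 antibody and 21900000 control reads.

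Starts came from 45756 known RefSeq transcripts (GRCm38.p6). A gene body ran from the first start to the last end, outside promoters. Of the 10 genes 9 matched the RefSeq promoter table. The 10 genes and the lists were chosen with earlier results of these data known, so nothing was tested over them. All 10 were described, listed genes were named where they had a promoter peak, and genes sharing a summit were named. Alternatives changed the promoter window, annotation, overlap, q-value, fold and motif. Python 3.11.15, numpy 2.4.6, pandas 2.3.3, scipy 1.17.1 and pysam 0.24.0 were used.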

Additional observations from a re-analysis of the deposited data

How the results depend on the processing

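Of 102 alternative values for 17 results, 91 stayed within the limits set for a change and 11 moved. The 10 regulators had 4 to 6 promoter peak genes in every setting run, the 90 listed genes 17 to 20 and all protein-coding genes 2680 to 3089. Among the 10 only Nrf1 and Yy1 changed their call. The number with a gene body peak fell from 2 to 1 with known and predicted RefSeq transcripts, where the Nrf1 peak became a promoter peak. Promoter peaks holding the palindrome numbered 1 with no mismatch and 4 with at most 2 mismatches, against 2. Promoters holding it numbered 1 with no mismatch, against 2. The median fold enrichment of 9.65 became 10.7 both at a q-value of at most 1e-05 and with promoters from 2000 bp before to 500 bp after a start. No paired analysis was possible because the series has 1 group and 1 peak list, and for the same reason no replicate could be left out. No called peak had fewer than 7 fragments at its summit, which limits what this depth can show.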
